A study of Glycine max with 9 samples.

Results

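The RESPONSE TO LOW SULFUR 3 genes LOC100820369 and LOC100813653 and the cysteine synthesis gene OAS-TL2 were followed through 9 RNA-seq libraries of soybean root tips. The 3 genes were taken by name from 62645 gene identifiers in the deposited table, of which 32763 reached the level needed for a test. They were chosen by their FPKM in these same libraries, which peaked after sucrose was added, so their levels at the 3 times are a description and carry no test. Soybean plants (Glycine max cultivar Williams 82) were grown for 4 weeks in half-strength Hoagland nutrient solution, and root sections of about 2 cm that included the tip were sampled as 3 biological replicates at each time. The t0 plants received no sucrose, while the t20 and t40 plants stood in 10 mM sucrose for 20 and 40 min. No library is labelled as kept for 20 or 40 min without sucrose, so sucrose and the time after handling cannot be told apart. The t0 libraries are numbered 1 to 3, the t20 libraries 4 to 6 and the t40 libraries 7 to 9, and these numbers pair no library with another. Levels are in FPKM (fragments per kilobase of transcript, scaled to the mapped fragments of a library), which the authors' tools computed for each transcript, and the values of all transcripts of a gene identifier were summed.

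Plants take up sulfate, reduce it to sulfide and join the sulfide to O-acetylserine, which gives cysteine. The last step is carried out by O-acetylserine (thiol) lyases (OAS-TL), and serine acetyltransferase supplies the O-acetylserine. When sulfur is short, less sulfide is made and O-acetylserine accumulates. In Arabidopsis the small LOW SULFUR (LSU) proteins are known for strong transcript rises under sulfur deficiency and after O-acetylserine accumulates, and they bind many other proteins. The soybean genome carries many genes in duplicated copies, and reads of near-identical copies may have been divided between them by the alignment.

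LOC100820369 lies on chromosome 4 (48378510 to 48379229, plus strand) and LOC100813653 on chromosome 6 (11319748 to 11320681, minus strand), in the coordinates of the deposited table on Glycine_max_v4.0. Each is annotated with 1 transcript of 1 exon, 720 and 934 bases long. OAS-TL2 lies on chromosome 20 (38623117 to 38628014, minus strand) with 6 annotated transcripts, 3 of 11 exons and 3 of 9 exons. Each of the 3 identifiers held the name of 1 gene only. Overlapping assembled transcripts of the opposite strand were found at both LSU genes. The one at LOC100820369 spans 48343895 to 48393054 with 7 exons, 1189 bases long in all, and was above 0 only in libraries 8 and 9 (9.40 and 10.5 FPKM). Whether any of these exons lies over LOC100820369 was not worked out. The one at LOC100813653 (11320020 to 11320234) did not exceed 1.68 FPKM in any library. The libraries came from a stranded kit, but the use of strand in alignment and assembly is not given in the sources used here, so reads of the 2 strands may not have been kept apart.

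LOC100820369 had 1.18, 1.62 and 3.53 FPKM at t0 in the order of library numbers. It reached 48.5, 15.1 and 57.3 FPKM at t20, and 11.6, 15.8 and 26.3 FPKM at t40. Every sucrose library stood above every control, and library 5 was far below the other t20 libraries and inside the range of t40. Means were 2.11 ± 1.25 (SD, n = 3), 40.3 ± 22.3 and 17.9 ± 7.56 FPKM, which is 19.1 times the t0 mean at 20 min and 8.47 times at 40 min. On the log2(FPKM + 1) scale the difference of group means was 3.60 at 20 min and 2.60 at 40 min. By size of this difference the gene stood at place 8 of the 32763 tested genes at 20 min and at place 571 at 40 min.

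LOC100813653 was the more abundant of the LSU pair in every library. It had 3.21, 2.94 and 15.0 FPKM at t0, with library 3 apart from the other controls. At t20 it had 74.5, 32.4 and 113.5 FPKM, and at t40 31.6, 23.2 and 35.7 FPKM. The lowest sucrose library (8) was still above the highest control (3), and library 5 again fell within the range of t40. Means were 7.06 ± 6.91 (SD, n = 3), 73.5 ± 40.6 and 30.2 ± 6.33 FPKM, 10.4 times the t0 mean at 20 min and 4.27 times at 40 min. The log2 differences were 3.36 and 2.26, which placed the gene at 24 and 821 among the tested genes.

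OAS-TL2 was expressed at a far lower level. Its FPKM was 0.0955, 0.0799 and 0.569 at t0, 4.61, 1.03 and 3.62 at t20, and 2.35, 1.14 and 2.37 at t40. All sucrose libraries were above all controls, and library 5 was here below every t40 library. Means were 0.248 ± 0.278 (SD, n = 3), 3.09 ± 1.85 and 1.95 ± 0.705 FPKM. The log2 differences were 1.61 at 20 min and 1.23 at 40 min, places 684 and 2813 among the tested genes, and adding 1 to values this low understates the change. The gene reached 1 FPKM in 6 libraries, all of them with sucrose, so it entered the set of tested genes only through the groups in which it was high.

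Groups that do not overlap were thus seen for 3 of 3 genes at both times. Among all tested genes, all t20 libraries stood above all controls for 10.6%, and all t40 libraries for 26.6%. The 3 genes were chosen for this rise, and nothing is read from their count.

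**Figure D1:**
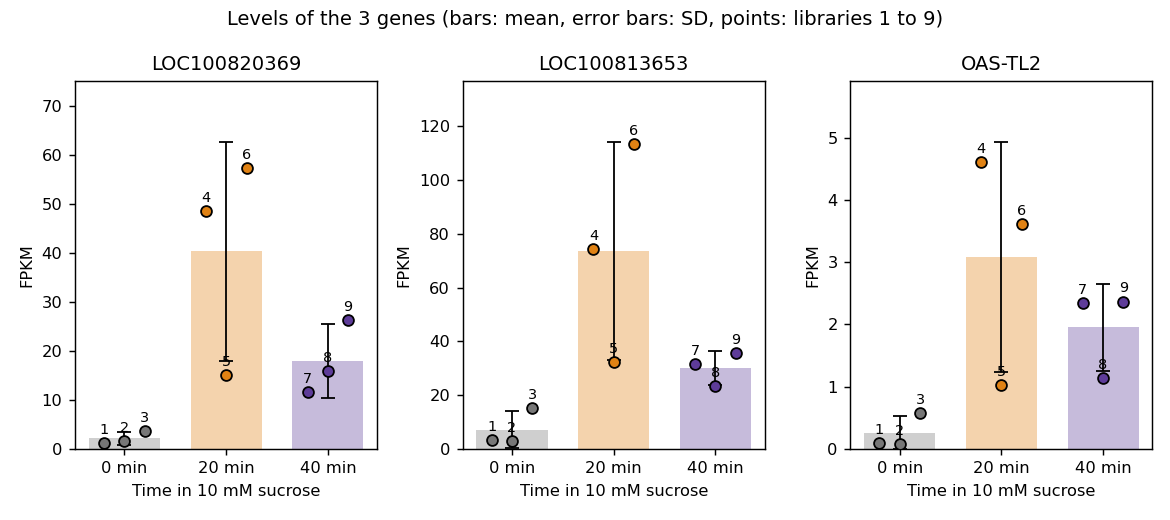
FPKM (y axis, linear, from 0) of LOC100820369, LOC100813653 and OAS-TL2 at 0, 20 and 40 min of sucrose; bars are means, error bars are SD over 3 libraries (cut at 0 where they would fall below it), and numbered points are libraries. All sucrose libraries lie above all controls, and among the t20 libraries number 5 is the lowest for each gene, at 15.1, 32.4 and 1.03 FPKM.

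The 3 genes had their highest mean at 20 min and a lower one at 40 min. The mean at t40 kept 41.3% of the 20 min rise for LOC100820369, 34.8% for LOC100813653 and 60.1% for OAS-TL2. The log2 differences of t40 against t20 were -1.003, -1.11 and -0.37, and for each gene libraries of the 2 times overlapped. No t40 library exceeded libraries 4 and 6, so the overlap came from library 5 alone. Of the 1860 tested genes with a log2 difference of at least 1 at 20 min, 29.3% had a lower mean at 40 than at 20 min. All 3 t40 libraries lay below the t20 mean for 22% of them, and this held for each of the 3 genes.

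Libraries of one time were unequal in the same way for the 3 genes. Library 3 was the highest control and library 5 the lowest t20 library for each of them. Among the 1860 genes, library 5 was the lowest of t20 for 88.8%, library 3 the highest of t0 for 33.1%, and both held for 31.7%. The place of library 5 is therefore common to most genes that were higher at 20 min, and that of library 3 is shared by fewer. The ratio of LOC100813653 to LOC100820369 in FPKM was 2.72, 1.81 and 4.26 at t0, 1.54, 2.15 and 1.98 at t20, and 2.73, 1.47 and 1.36 at t40. It was above 1 in all libraries, highest in library 3, and its groups overlapped.

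In the mean of each time, LOC100820369 stood above 21.7% of the tested genes at t0, 90.6% at t20 and 77.1% at t40. LOC100813653 stood above 54.8%, 95.3% and 87% of them. OAS-TL2 stood above 1.45%, 28.4% and 15.8%, and so remained among the weakly expressed genes at its peak.

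Photosynthesis genes were looked for as markers of shoot and leaf cells, and some of them stood highest where the LSU genes did. Of 11 such genes found by symbol, 7 reached the level for a test and 4 did not. The mean at t20 was the highest of the 3 times for all 11, and library 6 was the highest library for 10, but the 11 include RCA03, LHCB1-7 and psbA, which stayed below 1 FPKM. RCABETA was highest in library 4 instead (2.99 FPKM, against 0.932 in library 6). RBCS2 and rbcL differed little between t20 and t0, by 0.07 and 0.11 on the log2 scale. Summed over the markers, FPKM ranged from 143 to 356 in the controls, from 169 to 697 after 20 min and from 109 to 143 after 40 min. CAB3, a chlorophyll-binding protein of the light-harvesting antenna, had 44.2, 16.8 and 46.1 FPKM at t0, 114, 56.3 and 335 at t20, and 38.5, 21.0 and 23.0 at t40. RCAALPHA, a form of the activase that keeps Rubisco active, had 0.0792, 0.211 and 0.115 FPKM at t0, 3.24, 1.65 and 8.44 at t20, and 0.354, 0.130 and 0.219 at t40. For both genes library 6 was the highest and library 5 the lowest at t20, the order that the LSU genes also showed. RCAALPHA was the 1 marker of 7 past the threshold at 20 min, against 0.922% of all tested genes, with 2.06 ± 0.37 (SE) on the log2 scale and a Benjamini-Hochberg adjusted p of 0.0411 from limma. It reached 1 FPKM only in the 3 t20 libraries, so it was tested only through the group in which it was high. The call held in 4 of 17 alternatives, with adjusted p from limma between 0.00176 and 0.132, and was lost when any library other than library 5 was left out. With an unadjusted p under 0.05 and a log2 value of at least 1, 5 of the 7 were higher at 20 min, against 6.61% of all tested genes in either direction, and 0 at 40 min, against 15.8%. Of these 5, RCA14 also reached 1 FPKM only in the 3 t20 libraries, and RCA11 and RBCS1 in 4 libraries each, all with sucrose. These genes too were tested only through sucrose libraries, so nothing is read from the count. CAB3 reached 1 FPKM in all 9 libraries.

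At t40 the median log2 fold change of the tested markers against t0 was 0.12, with a range from -0.73 (RBCS2) to 0.58 (RBCS1). All t40 libraries of RBCS1 (0.429, 1.21 and 1.46 FPKM) were above its controls (at most 0.420 FPKM). The same held for RCABETA, which was too low to be tested (0.586 to 1.07 FPKM, controls at most 0.504). LOC100820369 and LOC100813653 stood 2.60 and 2.26 above their control means. RBCS2, a small subunit of Rubisco and the most abundant marker at t0, had 309 FPKM in control library 1, where the LSU genes were low. The plastid-encoded psbA and rbcL were at most 0.420 and 1.83 FPKM. Plastid transcripts mostly lack the poly(A) tails by which mRNA is captured, so these levels alone say little on green tissue. Both genes are nevertheless included in the counts of 11 markers, and rbcL in the 7 tested markers and their median. The part of shoot or leaf RNA in the levels of the 3 genes was not tested. In whole root sections, fewer cells of a type and less RNA per cell cannot be told apart. Of 6 nodule symbols 4 were listed at 0 in all libraries and the highest of the others was 1.12 FPKM. The root cell symbols looked for matched none of the gene names, so the tissue was not checked by root markers.

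**Figure D2:**
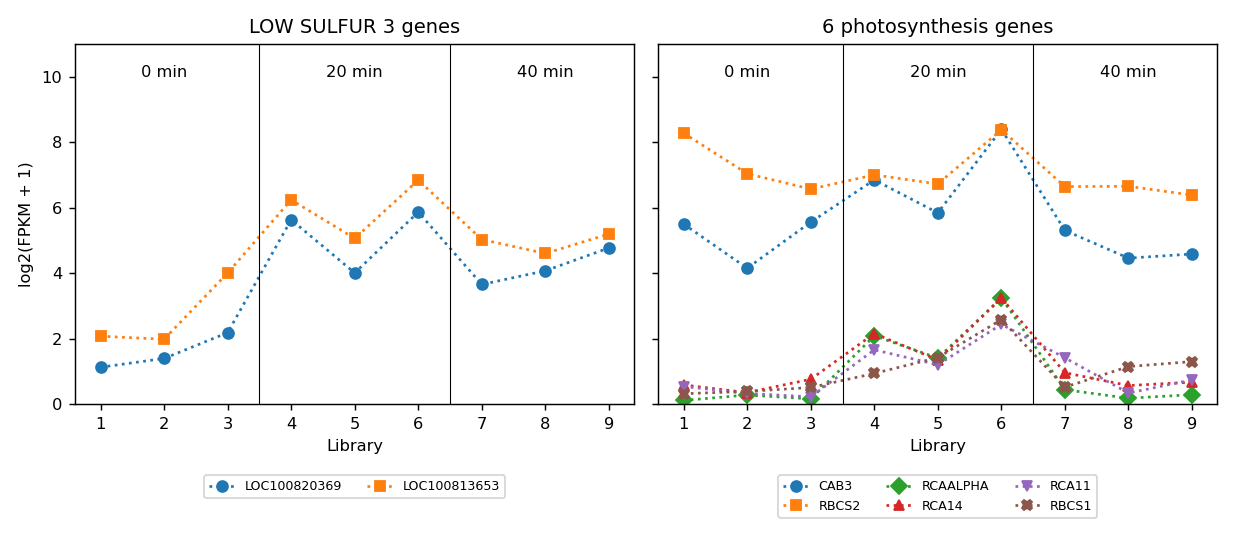
log2(FPKM + 1) (y axis) by library (x axis, 1 to 9, with the 3 times separated by vertical lines) for LOC100820369 and LOC100813653 on the left and for 6 of the 11 photosynthesis genes on the right; dotted lines only join points of one gene. Library 6 is the highest in all genes drawn, whereas RCABETA, which is not drawn, was highest in library 4 (2.99 FPKM). At 40 min the LSU genes and RBCS1 (0.429 to 1.46 FPKM) lie above their controls, and CAB3 is at 21.0 to 38.5 FPKM.

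To see whether other sulfur genes moved with these genes, 12 were taken by symbol. They were 6 further OAS-TL genes, serine acetyltransferase SAT1, sulfite reductase SIR and homoglutathione synthetase HGS. Cystathionine gamma-synthases CGS1 and CGS2 of the methionine branch were also taken, as was CAS, whose role the symbol alone does not settle. Symbols of sulfate transporters and of enzymes between sulfate and sulfite were sought, but the list holds none. Sulfate uptake and the steps from sulfate to sulfite were therefore not covered. All 12 reached the level for a test. A call needed a Benjamini-Hochberg adjusted p under 0.05, from limma over all tested genes, and a change in level of 1 or more on the log2 scale in either direction. At 20 min 0 of 12 were called, against 0.922% of all tested genes, at 40 min 0 of 12 against 14%, and between 40 and 20 min 0 of 12 against 1.36%. With an unadjusted p under 0.05 and the same fold, 1 gene was higher at 20 min (OAS-TL6), against 6.61% of all tested genes in either direction. At 40 min 1 was higher (OAS-TL7), against 15.8%, and 1 was lower at 40 than at 20 min (OAS-TL6), against 5.18%. The median log2 fold change of the 12 was 0.12 at 20 min and 0.12 at 40 min, beside 0.02 and 0.06 for all tested genes.

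**Figure D3:**
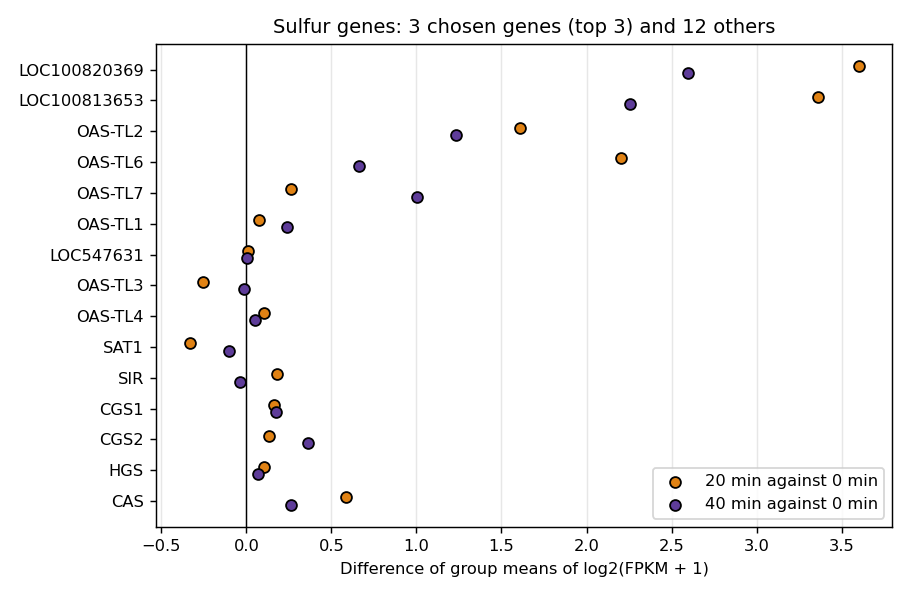
Difference of group means of log2(FPKM + 1) (x axis) of t20 and of t40 against t0 for the 3 chosen genes in the top rows and the 12 other sulfur genes below. The chosen genes reach 3.60, 3.36 and 1.61 at 20 min, OAS-TL6 reaches 2.20, and the 10 genes other than OAS-TL6 and OAS-TL7 lie between -0.33 and 0.58 at both times.

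OAS-TL6 on chromosome 10 (39553457 to 39559700) had the largest log2 fold change of the 12 listed genes at 20 min. It had 0, 0.0735 and 0.301 FPKM at t0, 9.04, 1.10 and 5.43 at t20, and 1.19, 0.173 and 1.16 at t40. All t20 libraries were above all controls, whereas library 8 at t40 was inside the range of the controls. At 20 min limma gave a log2 fold change of 2.20 ± 0.49 (SE) with a Benjamini-Hochberg adjusted p of 0.0660. The values from limma were 0.66 at 40 min (adjusted p = 0.343) and -1.54 between 40 and 20 min (adjusted p = 0.156), so none of the 3 comparisons passed. The mean at t40 kept 14.1% of the rise seen at 20 min. The call changed with library 5: without it limma gave 2.85 at 20 min with an adjusted p of 0.00121. Between 40 and 20 min it then gave -2.18 with an adjusted p of 0.0288. Leaving library 5 out also took the number called among all tested genes from 302 to 2233 at 20 min. Between 40 and 20 min that number went from 444 to 218. Over 16 alternatives the adjusted p at 20 min ranged from 0.00121 to 0.211 and was under 0.05 in 2, the other being the smaller pseudocount. OAS-TL6 reached 1 FPKM in 5 libraries, all with sucrose, so it too was tested only through the groups in which it was high.

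The 5 other OAS-TL genes were abundant at all times. OAS-TL1 had means of 63.6 ± 24.9 (SD, n = 3), 62.8 ± 1.19 and 71.1 ± 8.82 FPKM at t0, t20 and t40, and LOC547631, which carries the synonym OAS-TL1, had 60.3 ± 8.04, 61.4 ± 14.1 and 60.1 ± 2.37. OAS-TL3 had 20.2 ± 1.93, 17.0 ± 3.69 and 20.2 ± 4.07, and OAS-TL4 13.5 ± 2.57, 14.5 ± 1.47 and 13.8 ± 0.357 FPKM. None of these 4 passed the test at either time, and their means moved by less than the largest SD among the 3 times. OAS-TL7 (chromosome 20, 46241464 to 46246834) had 54.2, 27.6 and 15.4 FPKM at t0, 49.3, 18.8 and 43.8 at t20, and 59.6, 65.4 and 51.0 at t40. Its controls differed widely, and its log2 fold change of 1.00 at 40 min had a Benjamini-Hochberg adjusted p of 0.125 in limma. Without library 1 the change was 1.45 and passed, with an adjusted p from limma of 0.0328.

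The 7 OAS-TL genes summed to 190 ± 51.9 FPKM (SD, n = 3) in the controls, 201 ± 7.28 after 20 min and 227 ± 15.1 after 40 min. OAS-TL2 and OAS-TL6 together made up 0.0413%, 0.0737% and 0.659% of this sum at t0, 6.74%, 1.10% and 4.35% at t20, and 1.46%, 0.589% and 1.65% at t40. The pair thus stayed a small part of OAS-TL transcripts even where it was highest, and the share at t40 overlapped that of the controls through libraries 3 and 8.

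**Figure D4:**
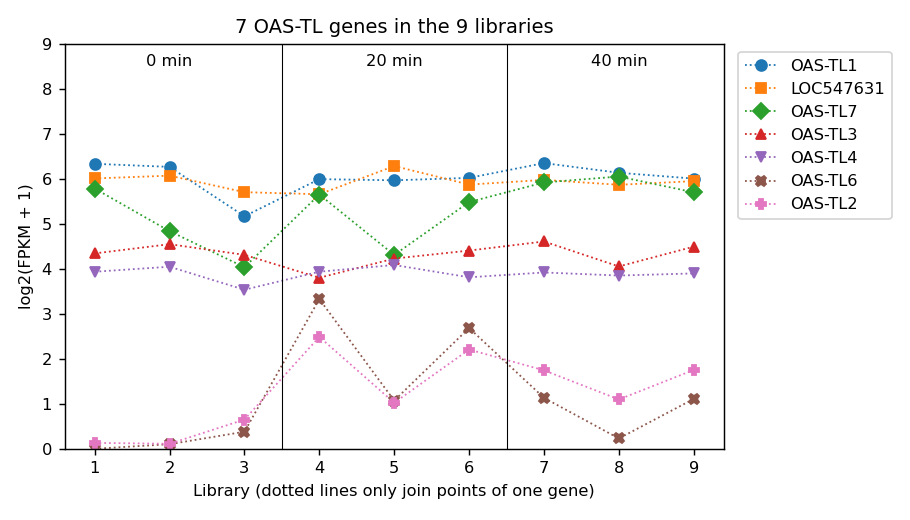
log2(FPKM + 1) (y axis) of 7 OAS-TL genes by library (x axis, the 3 times separated by vertical lines); dotted lines only join points of one gene. OAS-TL1, LOC547631, OAS-TL7, OAS-TL3 and OAS-TL4 lie above in every library, and OAS-TL2 and OAS-TL6 rise from at most 0.569 FPKM at t0 to 4.61 and 9.04 FPKM in library 4.

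None of the other genes of the list passed the test at any time. SAT1, the symbol of serine acetyltransferase, had means of 6.34 ± 2.43 (SD, n = 3), 4.68 ± 1.13 and 5.87 ± 2.66 FPKM at t0, t20 and t40. SIR, which reduces sulfite to sulfide, had 27.1 ± 5.48, 30.5 ± 2.73 and 26 ± 1.63 FPKM. CGS1, at the entry to methionine synthesis, had 36.0 ± 5.40, 40.2 ± 4.18 and 40.5 ± 2.93 FPKM. CGS2 had 69.6 ± 3.62, 76.2 ± 2.80 and 89.8 ± 3.79 FPKM, with all t40 libraries above all others, and limma gave 0.36 on the log2 scale at 40 min with a Benjamini-Hochberg adjusted p of 0.110. HGS, which makes the legume thiol homoglutathione, had 23.5 ± 7.85, 24.7 ± 5.61 and 23.7 ± 2.30 FPKM. CAS was at 1.87 ± 0.0823, 3.40 ± 1.14 and 2.45 ± 0.311 FPKM, and the log2 value of 0.58 that limma gave at 20 min did not pass, with a Benjamini-Hochberg adjusted p of 0.178.

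The transcripts of OAS-TL2 were looked at one by one, since a rise of the sum can come from different forms. A pair of 11-exon forms carried most of it, NM_001251482.2 of 1339 bases and XM_014772204.3 of 1311 bases. NM_001251482.2 made up 100%, 84.2% and 56.0% of the gene at t0, 61.5%, 0.967% and 0.227% at t20, and 99.4%, 3.75% and 100% at t40. XM_014772204.3 made up 28.3%, 96.6% and 82.4% at t20 and 0.627%, 96.3% and 0% at t40. Each form prevailed in some libraries of both sucrose times. The 2 forms lie over nearly the same stretch (38623117 to 38627918 and 38623130 to 38627733), so reads that fit both were divided by the authors' tools and the split is uncertain. Taken alone, NM_001251482.2 had a higher mean at t40 than at t20, opposite to the sum.

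**Figure D5:**
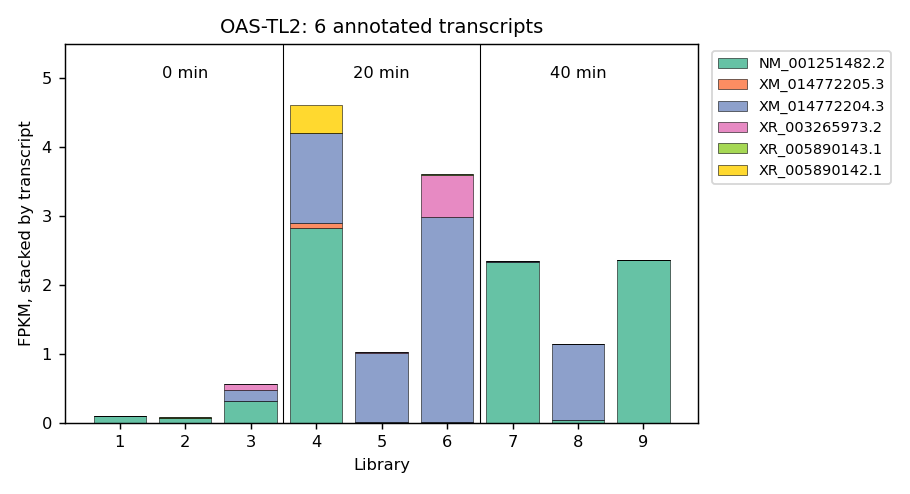
FPKM of the 6 annotated OAS-TL2 transcripts (stacked bars, y axis linear from 0) in each library (x axis, the 3 times separated by vertical lines). The bars of libraries 4, 7 and 9 consist mostly of NM_001251482.2 and those of libraries 5, 6 and 8 mostly of XM_014772204.3, while the bar height is the gene sum.

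OAS-TL6 was spread over 12 transcripts, 10 of them annotated. The 2 forms that came from the assembly alone held 83.1%, 54.5% and 81.4% of its FPKM at t20 and 2.41%, 0% and 11.5% at t40. At t0 they were listed at 0 in every library. A sum over annotated transcripts alone would thus leave out more than it keeps of this gene at its peak.

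Of the 6 genes next to the 3, LOC100775460 and LOC100813121 were tested and did not pass at any time, and the other 4, among them both neighbours of OAS-TL2, were too low to be tested. Next to LOC100820369, LOC100775460 (9849 bases away) had means of 48.9 ± 4.77 (SD, n = 3), 39.2 ± 3.02 and 43.9 ± 7.86 FPKM at t0, t20 and t40, where its identifier includes the opposite-strand assembled transcript that spans LOC100820369. LOC100795129 on the other side was at most 0.0376 FPKM. Next to LOC100813653, LOC100813121 had 35.1 ± 0.485, 33.7 ± 1.99 and 32.5 ± 3.53 FPKM. LOC100781936, on its other side, was weakly expressed with 0.333 ± 0.115, 0.822 ± 0.295 and 0.660 ± 0.0977 FPKM. LOC100807367 ends 23 bases from OAS-TL2 on the opposite strand and was above 0 only in library 7 (0.0551 FPKM), and CG-BETA-2 on the other side was listed at 0 in all libraries.

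Likeness of pattern was measured by the Pearson correlation of log2(FPKM + 1) over the 9 libraries, as a description of genes that share these libraries and their times. LOC100820369 and LOC100813653 correlated at 0.97 with each other, and OAS-TL2 at 0.94 with each of them. Among 32762 other tested genes, LOC100813653 stood at place 7 in likeness to LOC100820369 and OAS-TL2 at place 28. In likeness to LOC100813653, LOC100820369 stood at place 6 and OAS-TL2 at place 24. From the side of OAS-TL2 the places were lower, 67 for LOC100820369 and 80 for LOC100813653. OAS-TL6 stood at place 295 in likeness to OAS-TL2, with a correlation of 0.90.

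Genes with a mean of at least 5 FPKM at one time were ranked by likeness, and the first 3 for each gene are named by their identifiers, for which no function is given in the sources used here. For LOC100820369 they were LOC100799978 (0.98), LOC100820497 (0.98) and LOC100814727 (0.97). For LOC100813653 they were LOC100799729 (0.98), LOC100794546 (0.97) and LOC100306369 (0.97), and for OAS-TL2 LOC100786017 (0.98), LOC100814727 (0.97) and LOC100799729 (0.97). LOC100814727 was thus near both LOC100820369 and OAS-TL2, and LOC100799729 near both LOC100813653 and OAS-TL2. LOC100799978 had 7.72, 9.36 and 10.4 FPKM at t0, 115, 37.7 and 109 at t20, and 47.4, 54.0 and 77.4 at t40. LOC100306369 had 39.3, 46.7 and 108 FPKM at t0, 297, 118 and 397 at t20, and 189, 101 and 144 at t40. In both genes library 5 was again the lowest at t20. The pattern also came with small changes, as in LOC100794546, whose means were 24.1 ± 2.53 (SD, n = 3), 34.1 ± 2.44 and 29.6 ± 1.35 FPKM.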

How the data were processed

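The authors made stranded mRNA libraries, demultiplexed the paired reads with bcl2fastq 2.20, trimmed them with Trimmomatic 0.32, aligned them with HISAT2 to Glycine_max_v4.0, assembled transcripts with StringTie and extracted FPKM with Ballgown. The deposited table gives FPKM of 119600 transcripts in 9 libraries. Another 9 columns, which hold coverage values per library, were not used. FPKM keeps no read counts, and the depth behind a value was not worked out from the coverage columns, so no interval for counting error is given. The read totals that the study states were not used here. Columns name the time but no replicate, so libraries are called by number. FPKM was summed per gene identifier. Genes with at least 1 FPKM in at least 3 libraries were fitted with limma 3.58.1 in R 4.3.3 on log2(FPKM + 1) with a variance trend, using the 9 libraries together, and p-values were adjusted by Benjamini-Hochberg. The p-values measure the spread between these libraries, which are labelled as biological replicates. The fit was tested on simulated data with independent noise for each value and changes set at t40 only. Differences shared by many genes of a library were not simulated. The sulfur list rests on symbols and synonyms of the RefSeq gene table (Glycine_max_v4.0). SUT1, CASP2, dehydrins, MATE transporters, maturases and a nodulin were left out as other genes. The members and lists were chosen with earlier results of these data known. Named genes are the 3 members, called or singled-out list genes, neighbours and the 3 genes most alike in pattern; OAS-TL6, OAS-TL7, CGS2 and CAS, which were not called, were singled out after their values were seen. A protein family search and promoter motifs were planned and not analysed here. Alternatives left out each library in turn, used pseudocounts of 0.1 or 0.5, changed the filter or the call thresholds, scaled by median ratio or by quantiles, dropped the variance trend, took single transcripts, or fitted 2 groups at a time. The alternatives for pattern correlations and for the marker RCAALPHA were added after seeing the data.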

Additional observations from a re-analysis of the deposited data

How the results depend on the processing

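The 0 sulfur genes called became 1 with an unadjusted p in each of the 3 comparisons, and 1 with a pseudocount of 0.1 at 20 min. With each library left out the number ranged from 0 to 1 in each comparison: it was 1 without library 5 at 20 min and between 40 and 20 min, and 1 without library 1 at 40 min. The background moved too: the 302 genes called at 20 min became 2233 without library 5 but 0 without library 2, 4 or 6 and 0 with no filter, 1 with only the groups compared, 7 with the most abundant transcript alone and 12 without library 9. The log2 differences of the LSU genes kept their direction and moved by less than 1 SD under other pseudocounts and scalings. With each library left out they were 3.25 to 4.18 (LOC100820369) and 2.96 to 4.02 (LOC100813653) at 20 min, 2.30 to 2.91 and 1.90 to 2.91 at 40 min, and -1.58 to -0.65 and -1.60 to -0.71 between them. OAS-TL2, which is near the pseudocount at t0, gave 3.24 at 20 min and 2.77 at 40 min with a pseudocount of 0.1, 1.73 at 40 min with 0.5, and 0.85 at 40 min after quantile normalization. Its most abundant transcript alone gave 0.45 at 20 min and turned the difference of 40 against 20 min to 0.53, since the other main form was left out. With each library left out OAS-TL2 gave 1.32 to 2.05, 1.12 to 1.45 and -0.82 to -0.08. The log2 fold change of OAS-TL7 at 20 min turned to -0.16 without library 3. Quantile normalization shifted the median of all tested genes at 40 min by -0.18 on the log2 scale. OAS-TL6 was not tested with at least 5 FPKM in at least 3 libraries or as its most abundant annotated transcript. No paired analysis was possible because the columns carry no replicate numbers.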

Other observations

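MIR395 loci, whose microRNA is known in Arabidopsis to rise in sulfur deficiency and to act on ATP sulfurylase transcripts, were looked up by name in the deposited table. All 26 were listed at 0 in the 9 libraries, in entries of 21 to 134 bases. What an mRNA library of this kind captures of such short loci was not tested.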
